A study of Mus musculus with 12 samples.

Results

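The genes described here are 10 enzymes that make serine or carry its carbon into the folate cycle, measured in mouse olfactory epithelium. They are Phgdh, Psat1, Psph, Shmt1, Shmt2, Mthfd1, Mthfd2, Mthfd1l, Aldh1l2 and Pck2, and they were found by matching these symbols to the array's gene annotation. Of the 45037 probe sets that are no controls, 24 named 1 of these genes alone, and 23 of them passed a filter on dim signal that 28986 probe sets passed. All 10 genes were among the 13628 genes tested, out of 18193 genes with a probe set of their own. The genes were chosen with differences between liposome treatments in these arrays known, so limma's values for those differences, and for the interactions that contain them, are given as a description from which nothing is concluded.

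Serine is made from 3-phosphoglycerate, an intermediate of glycolysis, in reactions catalysed in turn by Phgdh, Psat1 and Psph. The serine hydroxymethyltransferases Shmt1, in the cytosol, and Shmt2, in mitochondria, move a carbon from serine to tetrahydrofolate and leave glycine. Folate then carries that carbon to purines, thymidylate and methionine or to formate. In many mammalian cells several of these genes are known targets of Atf4, a transcription factor that is made when amino acids are scarce or the endoplasmic reticulum is stressed.

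All mice were male wild-type C57BL/6J aged 6 weeks, and each of the 4 groups had 3 arrays, which the labels call biological replicates. Lip-C OBX mice received clodronate liposomes, meant to deplete macrophages, and had both olfactory bulbs removed (OBX), which cuts the axons of the olfactory sensory neurons. Lip-O OBX mice received empty liposomes and the same operation. Lip-C sham mice received clodronate liposomes and Lip-O sham mice empty ones, each with a sham operation. Per the labels, liposomes went into the nose in 50 µl on 3 consecutive days and into a tail vein in 200 µl with the first and last of these, surgery was on the middle day, and the epithelium was taken at 48 h. The intravenous dose was meant to deplete part of the blood monocytes, so the treatment was not limited to the nose. The series compared depleted and non-depleted mice to ask how macrophages bear on loss, protection and renewal of olfactory neurons. No source used here says whether an array holds RNA of 1 mouse or of several, and p-values measure only the spread between these samples.

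Signals are linear probe set intensities that the authors had scaled to a common level on every array, and array medians ran from 117.4 to 134.1. Differences are on the log2(signal + 16) scale, which understates the change of dim genes, with the standard error of the model. A gene was called where its p, adjusted over all 13628 genes within a comparison, was under 0.05. The probe set of highest mean signal stands for its gene, and signals of different genes are not compared because probes differ in brightness. The summed signal of 6 marker genes of mature olfactory neurons was 36483 or more on every array, so the tissue held the neurons its label names. On the first principal component, which held 32.9% of the variance, the third array of Lip-C OBX and the third of Lip-O OBX lay nearest to the sham arrays among the OBX arrays. Calls of members that change without both of these arrays are given both ways.

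In sham mice, 4 of the 10 genes were called between Lip-C and Lip-O, all of them higher with Lip-C, while 2.1% of all tested genes were called in either direction. They were Phgdh, Psat1, Shmt2 and Pck2, at 1.92, 1.80, 1.39 and 1.41 times the Lip-O level on the log2(signal + 16) scale. The median difference of the 10 genes was 0.47, against 0.003 over all tested genes. In OBX mice none was called, beside 0.345% of all genes, and 7 of 10 had an unadjusted p under 0.05 with limma, as did 1730 of all 13628 genes. Of these 7 members, Mthfd1 was lower with Lip-C and the others were higher. The median difference of the 10 genes there was 0.41, against 0.005 over all genes. Because the genes were chosen with these differences known, nothing is read from these counts and medians. Averaged over both surgeries the same 4 genes were called, all higher with Lip-C, beside 1.59% of all genes. With the replicate number as a block, 3 genes were called in sham mice, and Pck2 was not among them.

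The sham count was sensitive to single arrays. It was 1, the gene Phgdh, when any 1 of the 6 sham arrays was left out, and 2 without the first or the second Lip-C OBX array. Without the third array of both OBX groups it was 2, Phgdh and Psat1. The count over both surgeries was 3 or 4 when any 1 array was left out, and 3 without the third array of both OBX groups, where Pck2 lost its call (adjusted p = 0.0567). The number of all genes called in sham mice also depended on single arrays, at 17 to 314 against 286.

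**Figure D1:**
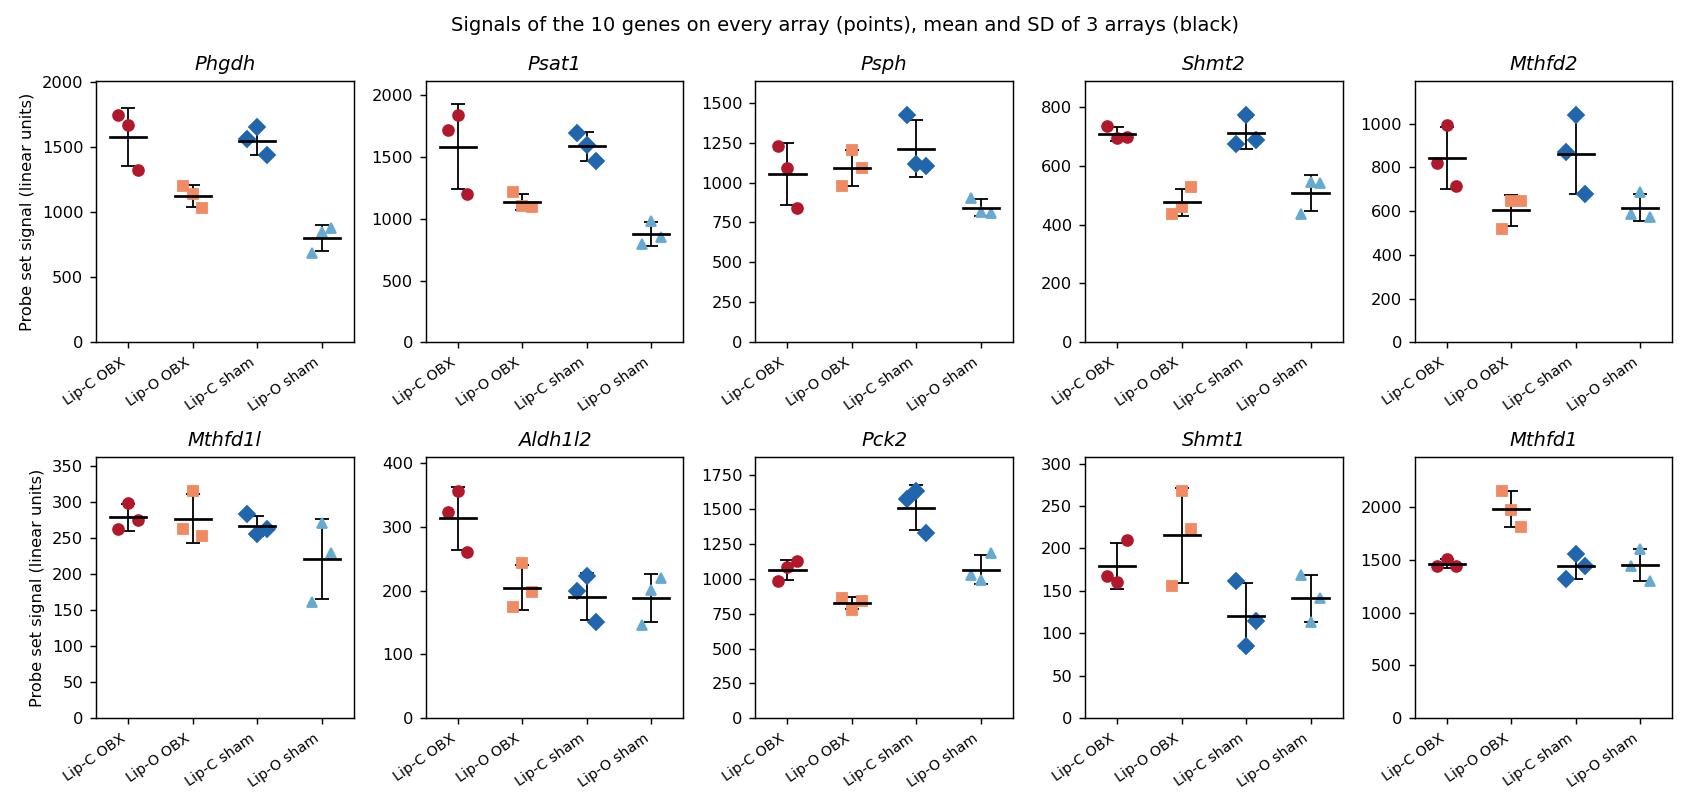
Linear probe set signal of each of the 10 genes on all 12 arrays, by group, with points for arrays and black lines for the mean and SD of 3 arrays. For Phgdh all 6 Lip-C arrays (1322 to 1746) lie above all 6 Lip-O arrays (690 to 1199.8), and for Mthfd1 the 3 Lip-O OBX arrays (1816.5 to 2155) lie above the other 9.

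Promoter windows are shown for Phgdh, Psat1, Shmt2 and Pck2, because they are the members called higher with Lip-C in sham mice. RefSeq (GRCm38.p6) gave 10 windows, from 250 bases before to 50 after a start, for 9 of the 10 genes, and none was listed for Aldh1l2. Both strands were searched for TGATGNAA, an element bound by Atf4 with C/EBP partners, for the CACGTG E-box, which Myc binds, and for the CCAAT box, CCAAT. Capitals in the sequences mark matches, which do not overlap each other. Each is written 5′ to 3′ on the strand of its gene:
Phgdh, minus strand of chr3:98339920-98340219: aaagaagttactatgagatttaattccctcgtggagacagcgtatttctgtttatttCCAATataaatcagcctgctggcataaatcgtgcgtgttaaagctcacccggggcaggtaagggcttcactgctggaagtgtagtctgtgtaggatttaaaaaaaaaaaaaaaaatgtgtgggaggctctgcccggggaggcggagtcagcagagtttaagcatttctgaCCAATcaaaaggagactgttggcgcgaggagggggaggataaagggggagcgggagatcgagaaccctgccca
Psat1, minus strand of chr19:15924573-15924872: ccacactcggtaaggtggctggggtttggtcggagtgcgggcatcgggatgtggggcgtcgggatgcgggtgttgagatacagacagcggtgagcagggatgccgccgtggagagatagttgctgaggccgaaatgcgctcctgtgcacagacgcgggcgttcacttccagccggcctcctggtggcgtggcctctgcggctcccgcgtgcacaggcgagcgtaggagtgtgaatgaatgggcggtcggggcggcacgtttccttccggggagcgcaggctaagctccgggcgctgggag
Psat1, minus strand of chr19:15925010-15925309: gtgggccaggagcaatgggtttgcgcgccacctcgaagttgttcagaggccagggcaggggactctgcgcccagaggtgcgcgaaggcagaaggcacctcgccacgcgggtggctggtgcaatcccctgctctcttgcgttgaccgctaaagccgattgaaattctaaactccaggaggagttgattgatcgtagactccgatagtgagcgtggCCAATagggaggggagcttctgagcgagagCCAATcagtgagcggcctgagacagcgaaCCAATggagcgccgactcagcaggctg
Shmt2, minus strand of chr10:127522395-127522694: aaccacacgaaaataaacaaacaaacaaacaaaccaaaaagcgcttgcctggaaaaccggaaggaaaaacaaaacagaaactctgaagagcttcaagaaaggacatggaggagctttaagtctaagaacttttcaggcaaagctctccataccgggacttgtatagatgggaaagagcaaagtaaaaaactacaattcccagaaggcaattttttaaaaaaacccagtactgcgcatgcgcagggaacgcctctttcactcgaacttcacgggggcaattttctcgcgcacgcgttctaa
Pck2, plus strand of chr14:55540016-55540315: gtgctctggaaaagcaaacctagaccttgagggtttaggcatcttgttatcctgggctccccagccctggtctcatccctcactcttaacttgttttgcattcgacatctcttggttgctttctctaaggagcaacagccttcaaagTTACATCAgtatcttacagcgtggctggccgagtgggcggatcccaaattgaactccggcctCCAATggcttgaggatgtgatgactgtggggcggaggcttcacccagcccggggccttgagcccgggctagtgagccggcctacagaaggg
The window of Pck2 holds TTACATCA, which is TGATGNAA read on the other strand, from 103 to 96 bases before the start. It is the only one of the 10 windows with that element, which 3.97% of all 32851 windows hold. CACGTG is in none of the 10 windows and in 7.15% of all. CCAAT is in 7 of the 10 windows and in 37.4% of all. CCAAT was added to the search after these sequences had been read, so its count was chosen with the letters known. Those 7 belong to Phgdh, Psat1, Psph, Mthfd1, Mthfd2, Shmt1 and Pck2, while 1 of the 2 Psat1 windows, the Shmt2 window and the Mthfd1l window lack it. A match describes these letters only, and no binding was measured here.

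Phgdh, the enzyme that opens serine synthesis, had the largest Lip-C difference of the 10 genes in sham mice. It had 1746, 1667 and 1322 signal units in Lip-C OBX epithelium, against 1199.8, 1139.7 and 1031 in Lip-O OBX. In sham mice it had 1562, 1652 and 1438 with Lip-C, against 690, 847 and 878 with Lip-O. All 6 Lip-C arrays were above all 6 Lip-O arrays. Lip-C means were 1578 ± 226 after OBX and 1550 ± 108 after sham surgery, and Lip-O means were 1123 ± 85.6 and 805 ± 101 (SD, n = 3 each). The log2 difference of Lip-C from Lip-O was 0.48 ± 0.13 in OBX mice and 0.94 ± 0.13 in sham mice.

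After removal of the bulbs Phgdh rose in Lip-O mice by 0.48 ± 0.13 (limma, adjusted p = 0.0249), with the 3 OBX arrays above the 3 sham arrays. Those 3 sham arrays also enter the liposome differences known when the genes were chosen. The p of this rise is therefore given as a description only. In Lip-C mice the difference was 0.02 ± 0.13 (adjusted p = 0.941, 95% interval -0.26 to 0.30). The interaction, the Lip-C difference in OBX mice minus that in sham mice, was -0.46 ± 0.18 with an adjusted p of 0.221, so the responses of the liposome groups were not shown to differ. The Lip-O call was lost without the first Lip-O sham array (adjusted p = 0.0797), the first Lip-O OBX array (0.0875) or the second (0.0634), and it stayed without the third OBX arrays (0.0148). It also fell short with the mean of the gene's probe sets (0.0854).

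All 4 probe sets of Phgdh were higher with Lip-C in both surgeries, by 0.48 to 0.72 in OBX mice and 0.53 to 0.99 in sham mice. After OBX in Lip-O mice 3 of the 4 were higher and the dimmest differed by -0.05 ± 0.21. All 4 are of a probe set class that may also bind near-identical transcripts. Another 2 probe sets name Phgdh together with Gm8096 or Gm6756, and their signals are left out of the gene's values.

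Psat1, the aminotransferase that acts after Phgdh, was also higher with Lip-C on average in both operations. It had 1718, 1839 and 1198 units in Lip-C OBX mice, against 1215, 1106 and 1096 in Lip-O OBX mice. After sham surgery it had 1698, 1597 and 1467 with Lip-C, against 793, 979.7 and 854 with Lip-O. The sham groups did not overlap, while the third Lip-C OBX array lay below the highest Lip-O OBX array. The Lip-C difference was 0.45 ± 0.15 in OBX mice and 0.85 ± 0.15 in sham mice, and both probe sets were higher in both surgeries.

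For OBX against sham, Psat1 differed by 0.38 ± 0.15 in Lip-O mice (adjusted p = 0.0992) and by -0.02 ± 0.15 in Lip-C mice (adjusted p = 0.932). Neither passed the threshold, although the Lip-O OBX arrays were all above the Lip-O sham arrays. Without the third array of both OBX groups the Lip-O value was 0.40 ± 0.11 and passed, with an adjusted p of 0.0351. The interaction was -0.40 ± 0.21 (adjusted p = 0.345).

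Psph, the phosphatase that releases serine, had 1226, 1094 and 839 units in Lip-C OBX mice, against 975, 1202 and 1089 in Lip-O OBX mice. In sham mice it had 1421, 1114 and 1102 with Lip-C, against 902, 816 and 811.5 with Lip-O. The sham groups were apart and the OBX groups overlapped, with Lip-C differences of -0.06 ± 0.15 in OBX mice and 0.51 ± 0.15 in sham mice. OBX gave 0.36 ± 0.15 in Lip-O mice (adjusted p = 0.113) and -0.21 ± 0.15 in Lip-C mice (adjusted p = 0.338). Its interaction, -0.57 ± 0.21, was the most negative of the 10 genes and did not pass adjustment (adjusted p = 0.199, 95% interval -1.03 to -0.11).

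Among the mitochondrial enzymes, Shmt2, which splits serine inside mitochondria, was higher with Lip-C in both operations and did not differ detectably between them. It had 735, 693 and 696.5 units in Lip-C OBX mice, against 436.5, 461 and 528 in Lip-O OBX mice. Sham mice had 672.5, 772 and 687 with Lip-C, against 437, 546 and 541 with Lip-O. All 6 Lip-C arrays were above all 6 Lip-O arrays. The genes were chosen with liposome differences known, so nothing is read from this separation. The Lip-C difference was 0.56 ± 0.11 in OBX mice and 0.48 ± 0.11 in sham mice. With limma it was not called in OBX mice (adjusted p = 0.0608). The sham call was near the threshold (adjusted p = 0.0485) and was lost in 18 of 25 alternatives. OBX gave -0.002 ± 0.11 in Lip-C mice (adjusted p = 0.99) and -0.09 ± 0.11 in Lip-O mice (adjusted p = 0.586), with 95% intervals of -0.24 to 0.23 and -0.32 to 0.14. The 2 brighter of its 4 probe sets showed the Lip-C difference, and over both surgeries the 4 ranged from 0.06 to 0.52. The probe set used is, as for Phgdh, of a class that may also bind near-identical transcripts.

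Mthfd2, the mitochondrial dehydrogenase and cyclohydrolase that is raised in many dividing cells, had 822, 995 and 715 units in Lip-C OBX mice, against 520.1, 645 and 646 in Lip-O OBX mice. In sham mice it had 869, 1039 and 676 with Lip-C, against 588, 686 and 575 with Lip-O. The OBX groups were apart, and in sham mice the lowest Lip-C array lay just under the highest Lip-O array. The Lip-C difference was 0.47 ± 0.17 in OBX mice and 0.46 ± 0.17 in sham mice, and its other probe set gave 0.50 and 0.54. OBX differed from sham by -0.02 ± 0.17 in Lip-C mice (adjusted p = 0.948) and -0.03 ± 0.17 in Lip-O mice (adjusted p = 0.917).

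Mthfd1l, which makes formate from the mitochondrial folate pool, was called in no comparison. Its signals were 262, 298 and 274 in Lip-C OBX mice, against 262, 315 and 253 in Lip-O OBX mice. In sham mice they were 282, 255 and 263 with Lip-C, against 161, 271 and 229 with Lip-O. The groups overlapped in every comparison. OBX in Lip-O mice gave the largest value, 0.33 ± 0.16 (adjusted p = 0.161), and the first Lip-O sham array was the lowest of the 12.

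Aldh1l2, the mitochondrial dehydrogenase that oxidises formyl-folate to carbon dioxide, rose after OBX in Lip-C mice. It had 323, 357 and 260.1 units in Lip-C OBX mice, against 174, 243 and 197 in Lip-O OBX mice. Sham mice had 199, 222.5 and 150 with Lip-C, against 147, 200.5 and 219 with Lip-O. The 3 Lip-C OBX arrays were the highest of the 12. The change with OBX was 0.68 ± 0.19 in Lip-C mice (limma, adjusted p = 0.0314) and 0.11 ± 0.19 in Lip-O mice (adjusted p = 0.708). These p-values are a description too, because the same arrays enter the liposome differences known when the genes were chosen. The interaction was 0.56 ± 0.26 (adjusted p = 0.298), so a difference between liposome groups was not shown. The call in Lip-C mice was lost without the first or the third Lip-C sham array (adjusted p = 0.0556 and 0.107), and without the first or the second Lip-C OBX array (0.0988 and 0.108).

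Pck2, the mitochondrial enzyme that makes phosphoenolpyruvate and so feeds 3-phosphoglycerate from below, was the member that fell after OBX. It had 988, 1089 and 1126 units in Lip-C OBX mice, against 861, 779 and 841 in Lip-O OBX mice. In sham mice it had 1574, 1634 and 1334 with Lip-C, against 1027, 990.4 and 1187 with Lip-O. OBX arrays were below sham arrays within each liposome group, and Lip-C arrays were above Lip-O arrays within each operation. Over both liposomes the change with OBX was -0.43 ± 0.07 (limma, adjusted p = 0.00187). Its size was -0.49 ± 0.10 in Lip-C mice (adjusted p = 0.0116) and -0.36 ± 0.10 in Lip-O mice (adjusted p = 0.0317), with an interaction of -0.13 ± 0.14 (adjusted p = 0.667). The sham arrays of each liposome group also enter the liposome differences known when the genes were chosen. The p-values within a liposome group are therefore given as a description only. The call over both liposomes held without any single array.

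Within each liposome group alone the fall of Pck2 rested on fewer arrays. In Lip-C mice it was lost without the first Lip-C OBX array (adjusted p = 0.0511). In Lip-O mice it was lost without the first or the third Lip-O sham array (adjusted p = 0.0577 and 0.112) or any 1 of the Lip-O OBX arrays (0.0552 to 0.0928), and without the third array of both OBX groups (0.0608). Its second, dimmer probe set was also lower after OBX, by -0.63 ± 0.19 in Lip-C mice and -0.96 ± 0.19 in Lip-O mice. That probe set did not share the Lip-C difference, with 0.19 in OBX mice and -0.14 in sham mice, against 0.36 and 0.50 for the brighter one.

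Mthfd1 and Shmt1, the folate enzymes of the cytosol, were not higher with Lip-C in either operation by the probe sets used. Mthfd1, which joins formate to folate in the cytosol, had 1439.8, 1513 and 1439 units in Lip-C OBX mice, against 2155, 1977 and 1816.5 in Lip-O OBX mice. After sham surgery it had 1321, 1559.6 and 1438.5 with Lip-C, against 1447, 1604 and 1304 with Lip-O. The Lip-O OBX arrays stood above the other 9, which overlapped. OBX raised Mthfd1 by 0.45 ± 0.10 in Lip-O mice (limma, adjusted p = 0.012), and the difference in Lip-C mice was 0.03 ± 0.10 (adjusted p = 0.875, 95% interval -0.19 to 0.25). Both p-values are a description only, because the same arrays enter the liposome differences known when the genes were chosen. The interaction was -0.42 ± 0.14 and did not pass adjustment (adjusted p = 0.168).

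The rise in Lip-O mice held without any single array. It fell short with a fit of the 6 Lip-O arrays alone (adjusted p = 0.0516). All 3 probe sets of Mthfd1 were higher after OBX in Lip-O mice, by 0.45 to 0.60, and all 3 were lower with Lip-C than with Lip-O in OBX mice, by -0.54 to -0.32.

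Shmt1, the cytosolic serine hydroxymethyltransferase, is dim on this array. It had 167, 161 and 209.8 units in Lip-C OBX mice, against 156, 268 and 222.5 in Lip-O OBX mice. Sham mice had 162, 85.4 and 115 with Lip-C, against 169, 114 and 142 with Lip-O. Neighbouring groups overlapped throughout. OBX raised it over both liposomes by 0.54 ± 0.16 (limma, adjusted p = 0.0281), at 0.55 ± 0.23 in Lip-C mice (adjusted p = 0.12) and 0.54 ± 0.23 in Lip-O mice (adjusted p = 0.127).

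The call over both liposomes was lost without any 1 of 6 arrays, the second and the third of Lip-C sham, the second of Lip-O sham, the third of Lip-C OBX and the second and the third of Lip-O OBX (adjusted p from 0.0508 to 0.0634). Without the third array of both OBX groups the value was 0.47 ± 0.19 (adjusted p = 0.0915). Another Shmt1 probe set had 93.8 ± 8.03 units in Lip-C OBX mice, against 158 ± 14.1 in Lip-O OBX mice, and 80.2 ± 8.87 in Lip-C sham mice, against 121 ± 9.60 in Lip-O sham mice (SD, n = 3 each). It was lower with Lip-C on every array of both operations, by -0.66 in OBX mice and -0.51 in sham mice. With each of the 28986 probe sets on its own this one passed the threshold for lower with Lip-C in both (adjusted p = 0.0354 and 0.0257), which the count of 1 probe set a gene leaves out. The third differed by 0.14 in OBX mice and -0.82 in sham mice, and the fourth lay under the filter.

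**Figure D2:**
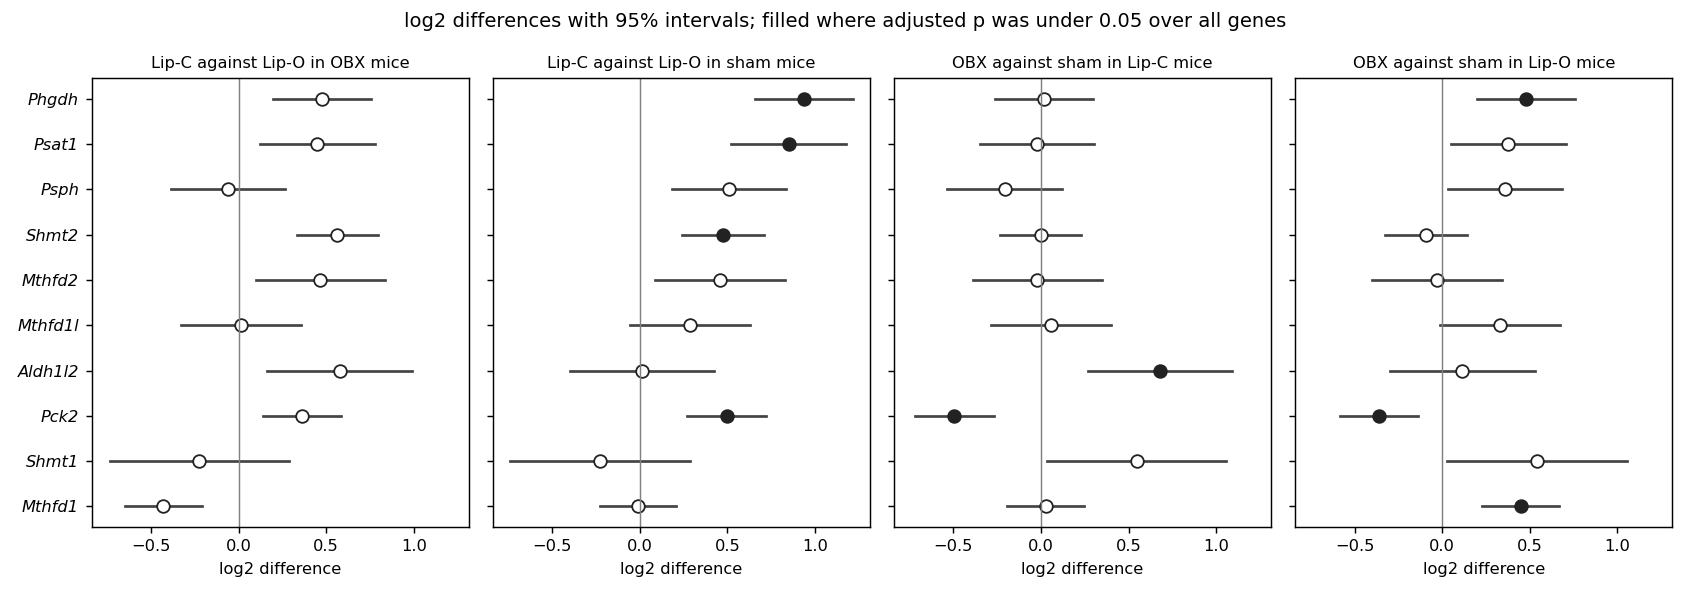
The log2 difference of each gene in 4 comparisons, with 95% intervals from the model, filled where adjusted p was under 0.05 over all tested genes. Filled points lie at 0.48 to 0.94 for Phgdh, Psat1, Shmt2 and Pck2 with Lip-C in sham mice, and Pck2 lies at -0.49 and -0.36 after OBX.

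Counted over the pathway, OBX called few members in either liposome group. In Lip-C mice 1 of 10 rose, Aldh1l2, and 1 fell, Pck2, beside 19.2% of all tested genes called in either direction. In Lip-O mice 2 rose, Phgdh and Mthfd1, and Pck2 fell, beside 19.6% of all genes. Averaged over both liposomes 3 rose, Shmt1 by 0.54 ± 0.16, Aldh1l2 by 0.40 ± 0.13 (adjusted p = 0.0409) and Mthfd1 by 0.24 ± 0.07 (adjusted p = 0.0257), and Pck2 fell, beside 32.7% of all genes. The shares are not far from those of all genes, so the number of calls does not set the pathway apart. Members' median differences were 0.008 in Lip-C mice and 0.35 in Lip-O mice, against 0.04 and 0.05 over all genes. Nothing is read from these medians, because the same arrays enter the liposome differences known when the genes were chosen.

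Both comparisons of OBX share arrays with the liposome comparisons. The Lip-O sham arrays, low for Phgdh and Psat1, enter both OBX against sham in Lip-O mice and Lip-C against Lip-O in sham mice. A rise of these genes after OBX in Lip-O mice is therefore not independent of how they were chosen. The Lip-C sham arrays, high for Pck2, likewise enter both its fall in Lip-C mice and its Lip-C difference in sham mice. For every member, the p-values of OBX within a liposome group are thus a description only. Over both liposomes, Aldh1l2 lost its call without any 1 of 8 arrays (adjusted p = 0.0548 to 0.0923). These were the first and the second of Lip-C OBX, the second and the third of Lip-O OBX, the first and the third of Lip-C sham and the first and the second of Lip-O sham. Mthfd1 lost its call without the second Lip-C OBX array, the first Lip-O OBX array, the first Lip-C sham array or the third Lip-O sham array (0.0563 to 0.0582). Centring arrays on their medians ended both calls (0.0565 for Aldh1l2 and 0.103 for Mthfd1). Without the third array of both OBX groups, Phgdh and Psat1 were called higher after OBX over both liposomes (adjusted p = 0.0134 and 0.0232).

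No member had an interaction that passed the threshold, and neither did any of the 13628 genes (0%). With limma 3 members had an unadjusted p under 0.05, Phgdh, Psph and Mthfd1, as did 2405 of all genes. The most genes called for the interaction under any alternative was 155, without the second Lip-O OBX array, and no alternative called a member. All 3 interactions were negative, from -0.57 to -0.42. Shmt2 and Mthfd2 had values of 0.09 ± 0.15 and 0.01 ± 0.24, with intervals of -0.24 to 0.42 and -0.51 to 0.53.

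**Figure D3:**
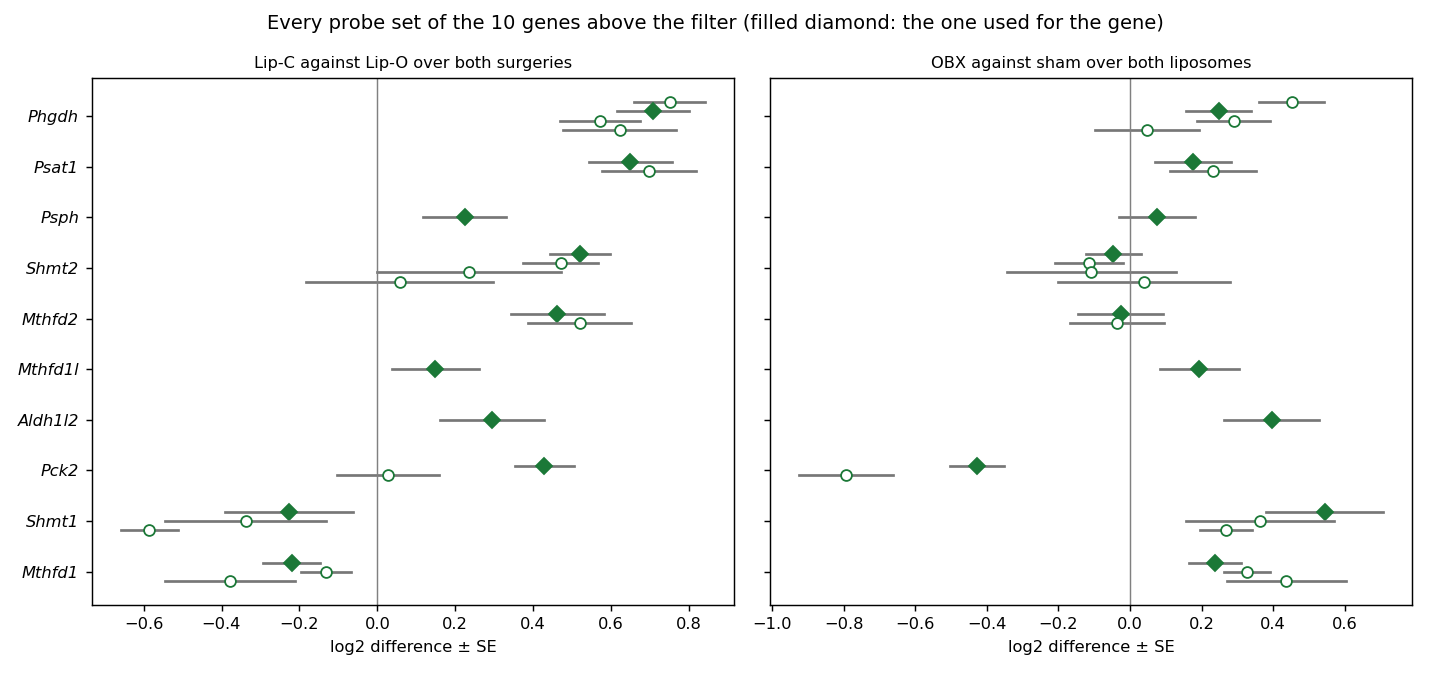
The log2 difference and standard error of all 23 probe sets of the 10 genes that passed the filter, for both treatments averaged over the other, with the probe set used for a gene as a filled diamond. The 4 Phgdh probe sets lie at 0.57 to 0.75 with Lip-C, both Pck2 probe sets lie under 0 after OBX (-0.79 and -0.43), and the 3 Shmt1 probe sets lie under 0 with Lip-C.

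Markers of bone cells moved with liposome treatment in sham mice, beside Phgdh, Psat1, Shmt2 and Pck2. The summed signal of 6 osteoclast markers, such as the bone-resorbing protease Ctsk, was 1468 to 2036 in Lip-C sham mice, against 8236 to 9607 in Lip-O sham mice, and 3 of the 5 tested were called lower. That of 4 osteoblast and osteocyte markers was 1328 to 1587 in Lip-C sham mice, against 6110 to 8400 in Lip-O sham mice, and 2 of 4 were called lower. In OBX mice both lists overlapped between liposomes. Osteoclast markers summed to 2275 to 6072 with Lip-C and 3760 to 9676 with Lip-O, and osteoblast markers to 2660 to 5801 and 3312 to 7143. Among 8 macrophage markers 2 were called lower in Lip-C sham mice, and their sum of 7438 to 11415 overlapped that of Lip-O sham mice, 8381 to 13263. Other lists also moved with Lip-C. Of 4 markers of neuronal precursors 2 were called lower in both operations, and they summed to 4589 to 5845 in Lip-C sham mice, against 5868 to 7273 in Lip-O sham mice. Horizontal basal cell markers summed to 1162 to 1328 in Lip-C sham mice, against 1496 to 1731 in Lip-O sham mice, with 1 of 3 called lower. Fibroblast markers summed to 19393 to 26039 in Lip-C sham mice, against 30447 to 55866 in Lip-O sham mice, and none of 6 was called. Sums in sham mice were also apart for dividing cells (6287 to 6536 with Lip-C, against 6806 to 8725). The same held for sustentacular cells (45612 to 47143, against 48283 to 54048) and Bowman glands (4600 to 5741, against 6798 to 29868). In OBX mice neutrophil markers summed to 32905 to 55699 with Lip-C, against 28220 to 32115 with Lip-O. No marker of these further lists was called between liposomes. In sham mice 1 of 4 endothelial markers was called higher with Lip-C, and in OBX mice 1 of 6 cartilage markers was called higher. The part of these cells in the members' levels was not tested, and in whole tissue fewer cells of a type and less RNA per cell cannot be told apart.

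Other lists moved with the operation. Mature neuron markers summed to 51886 to 63687 in Lip-C OBX mice, against 74878 to 79881 in Lip-C sham mice, with 3 of 6 called lower. In Lip-O mice they summed to 36483 to 59158 after OBX, against 71611 to 82082 after sham surgery, with 5 of 6 called lower. Macrophage markers summed to 11869 to 16359 in Lip-C OBX mice and 12239 to 20565 in Lip-O OBX mice, with 6 and 3 of 8 called higher after OBX. In Lip-C mice OBX also raised 5 of 6 cartilage markers, 4 of 6 of fibroblasts, 3 of 4 of osteoblasts and osteocytes, 2 of 3 each of horizontal basal cells and Bowman glands, and 1 each of sustentacular and of ensheathing and Schwann cells. Markers of dividing cells summed to 7513 to 9682 in Lip-C OBX mice, against 6287 to 6536 in Lip-C sham mice, with 3 of 5 called higher. In Lip-O mice OBX raised 2 of 4 sustentacular and 2 of 3 Bowman gland markers, and 1 each of neuronal precursors, horizontal basal cells, ensheathing and Schwann cells, cartilage and endothelium. Their part in the changes of Pck2, Aldh1l2, Phgdh and Shmt1 was not tested.

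Markers of liver moved with Mthfd1. The 6 liver markers, such as albumin, summed to 505 to 2414 in Lip-O OBX mice, against 132 to 196 in Lip-O sham mice, and all 3 that passed the filter were called higher. They summed to 142 to 209 in Lip-C OBX mice and 127 to 164 in Lip-C sham mice. The part of such RNA in Mthfd1 was not tested.

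Among the neighbours of the pathway, the glycine cleavage enzyme Gldc, which splits the glycine that Shmt1 and Shmt2 leave, fell most. It averaged 474 ± 115 units in Lip-C OBX mice, against 1136 ± 159 in Lip-C sham mice, and 343 ± 94.7 in Lip-O OBX mice, against 1149 ± 191 in Lip-O sham mice (SD, n = 3 each). The change was -1.25 ± 0.22 in Lip-C mice (limma, adjusted p = 0.00665) and -1.72 ± 0.22 in Lip-O mice (adjusted p = 0.0013). It was the only 1 of 3 tested glycine cleavage genes to be called, and none was called for Lip-C.

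Of 15 other folate cycle genes tested, none was called for Lip-C in either operation. After OBX the folate transporter Slc46a1 rose in Lip-C mice by 0.74 ± 0.16 (adjusted p = 0.0151). In Lip-O mice Aldh1l1, the cytosolic relative of Aldh1l2, rose by 0.79 ± 0.14 (adjusted p = 0.00524) and the folate receptor Folr1 by 0.71 ± 0.22 (adjusted p = 0.0462). These are 1 and 2 of 15 genes, beside 19.2% and 19.6% of all genes. The list's median was 0.03 in Lip-C mice and 0.12 in Lip-O mice, against 0.04 and 0.05 over all genes.

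Of 10 methionine cycle and transsulfuration genes, 3 rose after OBX in Lip-O mice and none fell, beside 19.6% of all genes called either way. They were Bhmt and Gnmt, which add and remove methyl groups in liver, by 0.96 ± 0.22 and 0.95 ± 0.18 (adjusted p = 0.0127 and 0.00607), and the liver form of methionine adenosyltransferase, Mat1a, by 0.62 ± 0.13 (adjusted p = 0.00806). In Lip-C mice Mat1a rose by 0.55 ± 0.13 (adjusted p = 0.017) and Mat2b, a regulatory subunit, fell by 0.30 (adjusted p = 0.0251), beside 19.2% of all genes. Bhmt averaged 41.8 ± 6.72 units in Lip-C OBX mice, against 147 ± 59.5 in Lip-O OBX mice, and was the only gene of the list called for Lip-C in OBX mice (-1.45 ± 0.22). The liver markers above summed to 505 to 2414 in Lip-O OBX mice, against 142 to 209 in Lip-C OBX mice. The part of such RNA in Bhmt, Gnmt, Mat1a and Aldh1l1 was not tested.

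Of 17 genes that carry serine or use it, OBX raised 2 and lowered 1 in Lip-C mice and raised 3 and lowered 1 in Lip-O mice. Beside the 19.2% and 19.6% of all genes called, these counts do not set the list apart. Ptdss2, which makes phosphatidylserine, fell in both, by 0.37 in Lip-C mice (adjusted p = 0.0308) and 0.63 in Lip-O mice (adjusted p = 0.00334). The amino acid carrier Slc38a1 and the sphingolipid enzyme Sptlc3 rose in Lip-C mice by 0.55 ± 0.13 and 0.55 ± 0.16 (adjusted p = 0.0215 and 0.0366). The genes that rose in Lip-O mice were Sfxn2, a mitochondrial carrier, by 0.88 ± 0.22, Sptlc2 by 0.52 ± 0.14 and Serinc5 by 0.45 ± 0.11 (adjusted p = 0.0222, 0.0232 and 0.0197). None of the 17 was called for Lip-C in either operation.

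The amino acid response list holds Atf4, other regulators of the response and known targets outside the pathway. In sham mice 7 of 30 tested genes were called higher with Lip-C and none lower, beside 2.1% of all genes called. The list's median there was 0.27. In OBX mice 3 were called higher, with a median of 0.06, beside 0.345% of all genes. The largest were Chac1, an enzyme that degrades glutathione, at 1.13 ± 0.17 in OBX mice and 1.53 ± 0.17 in sham mice, and the hormone Fgf21, at 1.83 ± 0.25 and 1.53 ± 0.25. Atf4 itself was called in neither operation, at 0.10 ± 0.08 in OBX mice and 0.08 ± 0.08 in sham mice. After OBX 1 of the 30 was called higher in Lip-C mice, Eif2ak4, and 4 were called lower, among them Trib3, Ppp1r15a and Gpt2. In Lip-O mice 4 were called higher after OBX, Atf3, Eif2ak4, Slc7a1 and Eif2ak3, and none lower. Of all genes 19.2% and 19.6% were called in these comparisons. This list too was drawn up with earlier results of these arrays known.

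**Figure D4:**
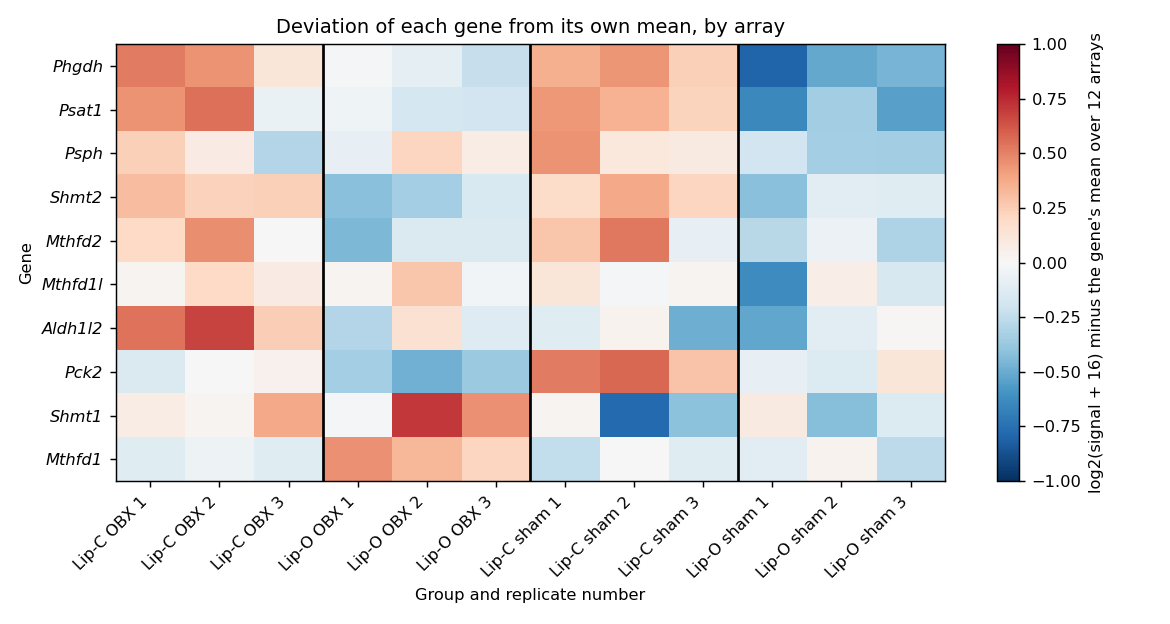
Deviation of log2(signal + 16) of each gene from its mean over the 12 arrays, with arrays grouped and numbered by replicate, red above and blue below the mean, from -0.80 to 0.71. Phgdh, Psat1 and Shmt2 are above their means on every Lip-C array except Psat1 on the third Lip-C OBX array, while Mthfd1 is highest in Lip-O OBX.

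The members did not vary as 1 block over the 12 arrays. Against the mean of the 10 standardized profiles, Phgdh and Psat1 had Pearson r of 0.94 and 0.93, and Mthfd2, Mthfd1l, Shmt2, Psph and Aldh1l2 had 0.67 to 0.81. Pck2 had 0.31, Shmt1 0.01 and Mthfd1 -0.06. Each gene is itself part of that mean, and the 12 arrays share 4 groups, so these are descriptions. The genes outside the pathway whose signals followed the mean most closely over the 12 arrays were Dohh (r = 0.96), an enzyme that modifies a translation factor, the endothelial cadherin Cdh5 (0.95), the lipoxygenase Alox12 (0.93), Safb2 (0.92) and Igfbp5 (0.92). Cdh5 averaged 151 ± 17.8 units in Lip-C OBX mice, 119 ± 11.6 in Lip-O OBX mice, 130 ± 11.7 in Lip-C sham mice and 86.3 ± 11.1 in Lip-O sham mice (SD, n = 3 each).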

How the data were processed

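RNA of microdissected olfactory epithelium was measured on 12 one-colour Affymetrix arrays, 3 in each of 4 groups taken from the sample titles. Per the labels' protocols, cRNA labelled with biotin was prepared from total RNA and hybridised. The authors deposited 1 linear intensity per probe set and array, scaled so that the mean after trimming 2% was 500 on every array. No source used here names the algorithm that summarised probes. The file holds 45101 probe sets, of which 64 are controls and were left out. In the platform annotation 34945 probe sets have 1 gene, 932 have several and 9160 have none, and all 10 members matched the GRCm38.p6 gene table by identifier.

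The fit used log2(signal + 16), and arrays were not scaled again. Probe sets had to lie above the 40th percentile of an array on 3 or more arrays, and for genes with several the brightest on average was used. The 4 group means were fitted in 1 model over 12 arrays (limma 3.58.1, R 4.3.3), which left 8 residual degrees of freedom, and moderation added 2.56. Tests were two-sided, with Benjamini-Hochberg adjustment over 13628 genes within each of 7 comparisons. The smallest p of an exact permutation test of 3 against 3 arrays is 0.1, so no such test was used. The model was tested on simulated data first. The number of arrays limits the precision: the median standard error of a log2 difference between groups was 0.124.

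The members and all gene and marker lists were chosen with earlier results of these data known. Every member is named. Of each list, names come from the 4 called genes with the largest change in a comparison, and not all of these are named. Pgam1 is also given for Lip-C mice, where its change with OBX was not among the 4 largest. The 5 genes most like the members were taken by Pearson correlation with the mean standardized profile. Promoter sequences came from RefSeq, and no coordinates of the arrays' probes are given because the values name no build.

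Replicate numbers recur in all groups. Deviations from group means correlated at -0.03 to 0.33 over 18 same-numbered pairs of arrays, 11 of them over 0.1, and 9 of 12 arrays correlated best with their own number. Every pair was over 0.1 for Lip-C sham with Lip-O sham (0.100 to 0.327) and for Lip-O OBX with Lip-O sham (0.135 to 0.311), so the pairing was kept for these comparisons as an alternative fit. Arrays of a group correlated at 0.970 to 0.987 across genes, and at most 0.313% of values were identical between a pair of arrays. Alternatives varied the filter, pseudocount, scaling, choice of probe set, arrays fitted, variance model, array weights and replicate block, and left out each array in turn. Leaving out the third array of both OBX groups was added after seeing the data.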

Additional observations from a re-analysis of the deposited data

Results flagged for a closer look

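Both probe sets that name Phgdh together with another gene were left out of the gene's values. In some comparisons their signals were higher in treated than in control arrays, with p adjusted by limma over 28986 probe sets. The Lip-C values are a description, because Phgdh was chosen with liposome differences known. The one shared with Gm8096 was higher with Lip-C by 0.90 ± 0.13 in sham mice (adjusted p = 0.00824) and by 0.71 ± 0.09 over both surgeries (adjusted p = 0.00582). It was higher after OBX by 0.55 ± 0.13 in Lip-O mice (adjusted p = 0.017) and by 0.37 ± 0.09 over both liposomes (adjusted p = 0.015). The one shared with Gm6756 was higher with Lip-C by 0.67 ± 0.14 in sham mice (adjusted p = 0.0292). After OBX it was higher by 0.55 ± 0.14 in Lip-O mice (adjusted p = 0.0245) and by 0.31 ± 0.10 over both liposomes (adjusted p = 0.0436). The flags leave out differences that did not pass. For Lip-C in OBX mice these were 0.53 ± 0.13 with Gm8096 and 0.18 ± 0.14 with Gm6756 (adjusted p = 0.168 and 0.658). For OBX in Lip-C mice they were 0.18 ± 0.13 and 0.07 ± 0.14 (adjusted p = 0.378 and 0.796). Over both surgeries the one with Gm6756 differed by 0.42 ± 0.10 with Lip-C (adjusted p = 0.0566). Which of the genes gave these signals was not tested.

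For 3 list genes, all arrays were apart in opposite directions in the compared pairs of groups, while the interaction did not pass adjustment with limma. Gnmt averaged 704 ± 43.5 units in Lip-C OBX mice, against 1034 ± 117 in Lip-O OBX mice, and 871.5 ± 161 in Lip-C sham mice, against 535 ± 121 in Lip-O sham mice (SD, n = 3 each). Its interaction was -1.24 ± 0.25 (adjusted p = 0.08). Sfxn2 averaged 322 ± 62.3 units in Lip-C OBX mice, against 437 ± 50.8 in Lip-O OBX mice, and 374.5 ± 56.9 in Lip-C sham mice, against 238 ± 75.3 in Lip-O sham mice (SD, n = 3 each), with an interaction of -1.09 ± 0.32 (adjusted p = 0.136). The amino acid carrier Slc7a5 averaged 1752 ± 115 units in Lip-C OBX mice, against 2261 ± 155 in Lip-C sham mice, and 1779 ± 87.7 in Lip-O OBX mice, against 1493 ± 81.6 in Lip-O sham mice (SD, n = 3 each). Its interaction was -0.62 ± 0.12 (adjusted p = 0.0776). These were the 3 that met this description in 212 evaluations, with 106 members and list genes looked at for both pairs of comparisons. How often it is met over all genes was not counted, so it does not set these genes apart.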

How the results depend on the processing

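No alternative reversed a called member. Over all members and comparisons, 1538 values kept their direction and their side of the threshold, 63 uncalled values changed sign within 1 SD, 92 lost a call, 17 gained one and 10 uncalled values moved by more than 1 SD, 3 of them through 0. For Lip-C in sham mice the count of 4 members became 1 without the filter on dim probe sets. It became 2 when a gene's probe sets were averaged or with only the arrays compared. It was also 2 with unmoderated variance or without the third array of both OBX groups. With array weights it was 5, where Psph was added as higher with Lip-C. With every probe set on its own it was also 5, through a Shmt1 probe set that was lower with Lip-C (-0.51). It was 3 with a pseudocount of 1 or quantile normalization. Leaving out single arrays gave 1 to 4. For Lip-C in OBX mice the count of 0 became 1, Shmt2 as higher, with a pseudocount of 64 or with an intensity trend in the variance. With every probe set on its own it also became 1, through the same Shmt1 probe set, lower with Lip-C (-0.66). Without single arrays it was 0 to 1. For OBX in Lip-C mice the count of 2 became 1 without the filter or with unmoderated variance, 3 with the mean of probe sets, and 0 to 2 without single arrays. For OBX in Lip-O mice the count of 3 became 0 with only the arrays compared, 4 with every probe set on its own, and 1 to 4 without single arrays. For Lip-C over both surgeries the count of 4 became 2 with the mean of probe sets, 3 without the third array of both OBX groups, and 3 to 4 without single arrays. It became 5 with every probe set on its own, where the added Shmt1 probe set was lower with Lip-C (-0.59). For OBX over both liposomes the count of 4 became 2 with median centring or unmoderated variance, 5 with a pseudocount of 64, the trend, array weights, every probe set on its own or without the third array of both OBX groups, and 2 to 5 without single arrays. The interaction called 0 members under all alternatives run, and the fit of only the arrays compared was not run where a comparison uses all arrays. The cause of these shifts was not tested, except that fits of fewer arrays have fewer degrees of freedom and the unfiltered fit adjusts over 18193 genes.

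With the replicate block, the pairing gave 3 members for Lip-C in sham mice, 0 for Lip-C in OBX mice, 2 and 3 for OBX in Lip-C and Lip-O mice, 0 for the interaction, 5 and 4 for the treatments over both levels of the other. It ended the call of Pck2 for Lip-C in sham mice (adjusted p = 0.0532) and gave Mthfd2 one over both surgeries (0.0431), and it changed no other call of a member.

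Counts over all genes moved more. For Lip-C in sham mice the 286 genes called became 56 without the filter, 79 with only the arrays compared, 591 with an intensity trend, 1262 with array weights and 1449 of 28986 probe sets, and 17 to 314 without single arrays, the lowest being 17 without the third Lip-C sham array, 19 without the third Lip-O sham array and 24 without the second. For Lip-C in OBX mice the 47 genes became 2 with only the arrays compared, 7 with unmoderated variance and 99 with the trend, and 7 to 76 without single arrays.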

Other observations

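Beside the pathway, 11 genes of endoplasmic reticulum stress, another process that raises Atf4, were followed. After OBX 6 of them rose in Lip-C mice and none in Lip-O mice at limma's adjusted threshold, beside 19.2% and 19.6% of all genes called either way. The chaperone partner Sdf2l1 rose in Lip-C mice by 0.77 ± 0.15 (limma, adjusted p = 0.0096), averaging 1802 ± 286 units in Lip-C OBX mice, against 1042 ± 60.4 in Lip-C sham mice (SD, n = 3 each). The disulfide isomerase Pdia4, Creld2 and the secreted factor Manf rose by 0.75 ± 0.20, 0.72 ± 0.15 and 0.43 ± 0.12 (adjusted p = 0.0306, 0.0115 and 0.0315). The list's median was 0.33 in Lip-C mice and 0.07 in Lip-O mice, against 0.04 and 0.05 over all genes, and none of the 11 had an interaction that passed the threshold. With Lip-C none of the 11 was called in either operation, with medians of 0.14 in OBX mice and -0.12 in sham mice.

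Of 10 genes of glycolysis and gluconeogenesis around 3-phosphoglycerate, 3 rose and 3 fell after OBX in Lip-C mice, and 2 rose and 2 fell in Lip-O mice, beside 19.2% and 19.6% of all genes. Pgam1, the mutase that competes with Phgdh for 3-phosphoglycerate, fell by 0.39 in Lip-C mice (limma, adjusted p = 0.0221) and by 0.58 in Lip-O mice (adjusted p = 0.00379). It averaged 4122 ± 326 units in Lip-C OBX mice, against 5393 ± 169 in Lip-C sham mice (SD, n = 3 each). The neuronal enolase Eno2 fell by 0.66 in Lip-C mice (adjusted p = 0.0101), and the muscle enolase Eno3 rose by 1.16 ± 0.27 there (adjusted p = 0.0177). Pyruvate carboxylase, Pcx, rose in Lip-O mice by 0.64 ± 0.14 (adjusted p = 0.0105). Fbp2 and Pgk1 were also called after OBX in Lip-C mice, and Fbp2 and Pkm in Lip-O mice. None of the 10 was called for Lip-C in either operation.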
